A study of Mus musculus with 8 samples.

Results

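A set of 8 genes of the perineuronal net and of the brain proteoglycan matrix were followed in mouse hippocampus. They were taken by symbol from the deposited tables and are Acan, Bcan, Ncan, Vcan, Hapln1, Hapln2, Hapln4 and Tnr. All 8 were found, among 17705 genes that could be matched between the tables of the series. RNA-seq was available for 8 libraries of total hippocampal RNA from C57BL/6 mice, in 4 groups of 2. The groups were mice with a CRISPR knockout of Pyk2 (KO), their wild-type controls (KO controls), mice carrying the CRISPR Y402F substitution in Pyk2 (Y402F) and the wild-type controls of that line (Y402F controls). Pyk2 is a non-receptor tyrosine kinase encoded by Ptk2b, and the Y402F substitution replaces the tyrosine at which the kinase phosphorylates itself. The study asked about contextual fear memory in these mice. Age, the part of Ptk2b removed, and whether a library holds a single animal or a pool are not given in the sources used here. Every p-value below therefore reflects library-to-library spread, some of which may be technical.

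Perineuronal nets are lattices of extracellular matrix around the cell body and proximal dendrites of some neurons, above all parvalbumin interneurons, and in hippocampus also around CA2 pyramidal cells. Their scaffold is hyaluronan, a long sugar chain. The lecticans aggrecan (Acan), brevican (Bcan), neurocan (Ncan) and versican (Vcan) are chondroitin sulfate proteoglycans that bind hyaluronan at one end. Link proteins (Hapln1, Hapln2, Hapln4) fasten lecticans to hyaluronan, and tenascin-R (Tnr) crosslinks the other end of the lecticans. The net restrains synaptic plasticity in the adult brain and is used as a marker of closed critical periods.

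The mutant and the control tables came from different software, so a difference of processing and the effect of genotype cannot be told apart when a mutant is set against its controls. That difference is absent from KO against Y402F and from the comparison of the wild-type pairs. A processing difference that is equal in both lines drops out of the difference between the mutant effects. The mutant libraries held 5756180 to 6017219 expected counts, while the control tables give no read numbers. Levels are in scaled FPKM, that is FPKM (fragments normalised for transcript length and library size) divided by a factor per library that aligns the genes shared by all libraries. Ptk2b was at 55.8 and 68.4 scaled FPKM in KO, against 308 and 307 in KO controls, and at 352 and 394 in Y402F, against 322 and 316 in Y402F controls. Its log2 difference was -2.29 in KO (SE 0.11, limma adjusted p = 2.44e-06) and 0.22 in Y402F (SE 0.11, limma adjusted p = 0.142). By Xist and Y-linked genes, replicate 1 of KO and of Y402F had a female pattern and replicate 2 a male one. Both KO controls were female and both Y402F controls male. From the control libraries alone, line and sex pattern therefore cannot be told apart in any comparison of the wild-type pairs. The same imbalance of the controls enters the difference between the mutant effects. The 8 choroid plexus markers summed to 751 scaled FPKM in Y402F replicate 2, whereas Y402F replicate 1 had 39.6. Their sum was 1142 and 1170 in Y402F controls, 39.8 and 53.9 in KO, and 49.4 and 48.2 in KO controls. Without Ttr, the most abundant of them, the sum was 98.3 in Y402F replicate 2 and 37.4 in Y402F replicate 1. It was then 131 and 142 in Y402F controls, 38.6 and 43.7 in KO, and 40.4 and 40.5 in KO controls. Of the 8 markers 4 were at 0 in at least 1 library.

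Each lectican gene lies next to a link protein gene in the mouse genome, with 0 coding genes between them (positions on GRCm38). Bcan (chr3:87987531-88000230) and Hapln2 (chr3:88021750-88027583) are both on the minus strand and 21.5 kb apart. Ncan (chr8:70093085-70120873, minus) and Hapln4 (chr8:70083457-70090862, plus) point at each other across 2222 bases. Vcan (chr13:89655312-89742509, minus) and Hapln1 (chr13:89539796-89611652, plus) also converge, across 43.7 kb. Acan (chr7:79053483-79115099, plus) ends 2 bases from Hapln3, the link protein gene that is not among the 8. Tnr (chr1:159523769-159931729, plus) has no such partner. The promoters of Ncan and Vcan are shown because these were the genes that changed in both mutant lines. Each runs from 250 bases before to 50 bases after the RefSeq start (GRCm38.p6, minus strand, chr8:70120795-70121094 and chr13:89742463-89742762), 5′ to 3′, with capitals marking promoter motifs read on either strand. The motifs searched were the TATA box (TATAAA), the CCAAT box (letters as in its name) and the GC box (GGGCGG), which do not overlap in these windows.
Ncan: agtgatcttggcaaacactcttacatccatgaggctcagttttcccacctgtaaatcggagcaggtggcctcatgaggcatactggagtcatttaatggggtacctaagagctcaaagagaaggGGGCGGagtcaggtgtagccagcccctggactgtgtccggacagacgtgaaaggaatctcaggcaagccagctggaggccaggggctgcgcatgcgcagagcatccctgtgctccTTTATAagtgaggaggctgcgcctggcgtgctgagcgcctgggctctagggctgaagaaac
Vcan: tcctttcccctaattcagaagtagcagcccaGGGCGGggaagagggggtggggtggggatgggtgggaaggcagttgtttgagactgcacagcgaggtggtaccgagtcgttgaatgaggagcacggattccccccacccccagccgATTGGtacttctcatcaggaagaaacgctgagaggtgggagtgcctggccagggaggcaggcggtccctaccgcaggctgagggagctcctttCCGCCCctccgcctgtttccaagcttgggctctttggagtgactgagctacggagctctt
The Ncan window holds 1 match to TATAAA and 1 to GGGCGG, and the Vcan window 1 match to CCAAT and 2 to GGGCGG. Of 32851 mouse promoters of the same length, 13.6% hold TATAAA, 37.4% CCAAT and 35.7% GGGCGG on either strand, so none of these matches is rare. The windows had 56.7% G and C with 9 CpG for Ncan and 61.0% with 12 CpG for Vcan, against medians of 52.7% and 7 CpG over all promoters. A promoter was found for 7 of the 8 genes, Hapln4 being the exception.

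The 8 genes spanned a wide range of levels. Bcan was the most abundant in every group, followed by Hapln4, Ncan, Tnr and Hapln1, and Acan was the least abundant. Averaged over 8 libraries Bcan stood at 64.7 scaled FPKM, above 89.9% of the 12974 genes tested, and Hapln4 at 42.7, above 83.9%. Acan, the lectican most often used to define perineuronal nets, averaged 1.04 scaled FPKM and lay above 0.5% of tested genes. Only genes with a mean of at least 1 scaled FPKM were tested, 12974 of the 17705 matched. A gene near that minimum therefore ranks low among them, and the matched genes left untested lie below Acan. Vcan stood below Hapln2 in both mutant groups and above it in both control groups. Of neighbours in this order, the libraries of Hapln1 and Hapln2 overlapped in KO, and those of Hapln1 and Vcan overlapped in both control groups. No other neighbours overlapped in any group.

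**Figure D1:**
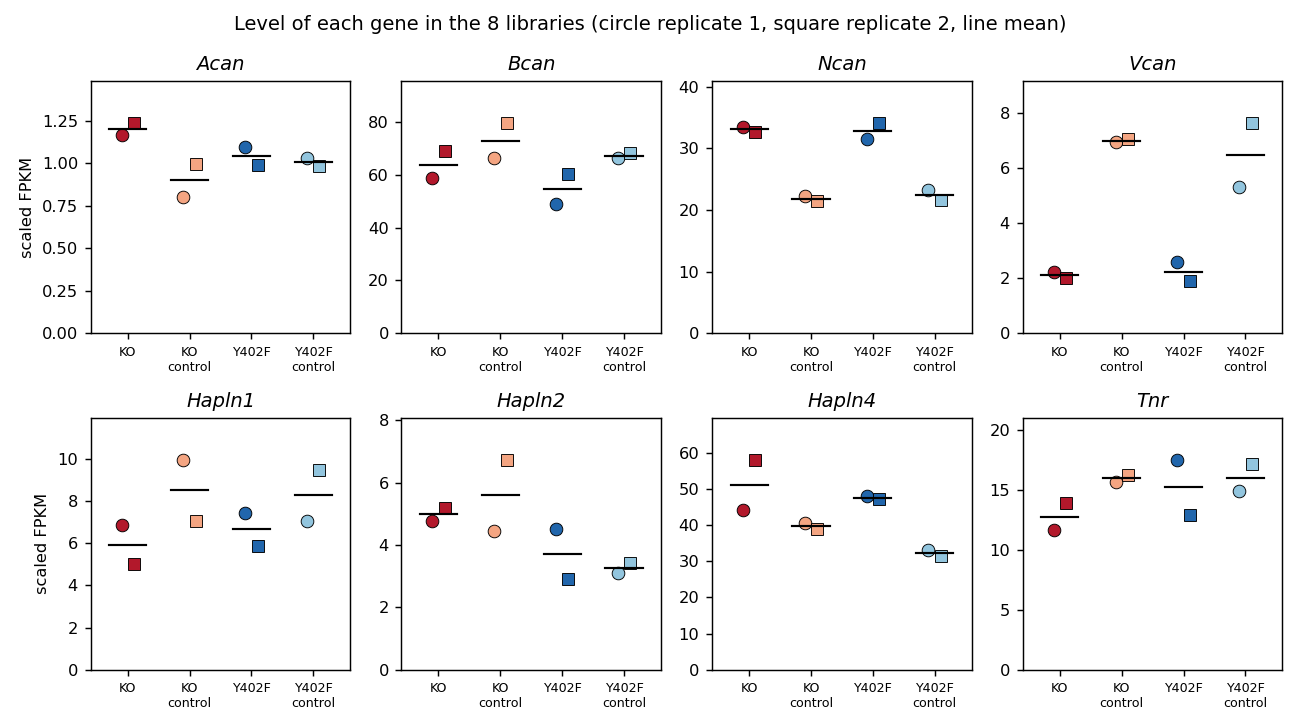
Level in scaled FPKM (vertical axes, each from 0) of the 8 genes in the 8 libraries, by group. Circles are replicate 1, squares replicate 2 and lines the group mean: all 4 mutant libraries lie above all 4 control libraries for Ncan and below them for Vcan. With each line taken alone, 71.0% of all genes did not overlap between KO and its controls, and 68.6% between Y402F and its controls. How many of all genes separate over all 8 libraries was not counted.

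Ncan, which encodes the lectican of the juvenile and adult brain made mainly by neurons and astrocytes, was higher in both mutant lines. Its level was 33.55 and 32.6 scaled FPKM in KO, against 22.2 and 21.5 in KO controls. In Y402F it was 31.5 and 34.1 scaled FPKM, against 23.2 and 21.7 in Y402F controls. The groups did not overlap in either line, and the ratios of means were 1.51 and 1.46. The log2 difference was 0.58 in KO (SE 0.11, 95% interval 0.34 to 0.82, limma adjusted p = 0.00357) and 0.53 in Y402F (SE 0.11, 0.29 to 0.77, limma adjusted p = 0.00624). Ncan rests on 1260 to 1416 expected counts per mutant library, which are not whole numbers in the tables, and it was called in both lines under each of the 15 other settings tried.

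Vcan encodes versican, a large lectican made by oligodendrocyte precursors, astrocytes, vessels and meninges. It had 2.22 and 2.02 scaled FPKM in KO, against 6.96 and 7.07 in KO controls. In Y402F it had 2.58 and 1.88 scaled FPKM, against 5.34 and 7.65 in Y402F controls. Every mutant library was thus below every control library, at 0.303 and 0.344 of the control means. Of all genes 35.3% were lower without overlap in KO and 34.0% in Y402F, each against its own controls. The log2 difference was -1.36 in KO (SE 0.21, 95% interval -1.83 to -0.89, limma adjusted p = 0.0014) and -1.20 in Y402F (SE 0.21, -1.68 to -0.73, limma adjusted p = 0.00298). Scaling every library to the same FPKM sum, which moved the median gene by 1.59 in KO and 1.08 in Y402F, gave 0.08 and -0.28 and ended both calls, although relative to that median Vcan was still at -1.51 in KO. In bulk RNA, fewer cells of a type and less RNA per cell cannot be told apart. The summed level of 8 meningeal fibroblast markers was also lower in the mutants, at 45.6 and 43.2 scaled FPKM in KO against 89.4 and 86.0 in KO controls, and 52.8 and 76.6 in Y402F against 111 and 114 in Y402F controls. Dcn and Igf2 made up most of these sums. Without them the sum was 6.65 and 10.5 in KO, against 14.7 and 14.6 in KO controls, and 10.1 and 16.6 in Y402F, overlapping the 10.8 and 12.2 of Y402F controls. Of the 7 tested, 3 were called lower in KO (Dcn, Igf2 and Fmod), where 20.9% of all genes were, and 2 in Y402F (Dcn and Igf2), where 19.3% were. Others went the other way without passing, such as Fmod in Y402F (0.53), and Col1a1 (0.09) and Lum (0.08) in KO. None of the 8 was at 0 in any library. The sum of 8 oligodendrocyte precursor markers was not lower, at 123 and 136 in KO against 123 and 123 in KO controls, and 116 and 125 in Y402F against 93.1 and 95.3 in Y402F controls. Without Olig1, the most abundant of them, it was 80.1 and 88.2 in KO, against 68.7 and 69.5 in KO controls. In Y402F it was then 72.4 and 79.9, against 62.4 and 63.2 in Y402F controls. By call 2 of the 8 were higher and 0 lower in each line, where 16.7% of all genes were called higher in KO and 13.1% in Y402F. The part of either cell type in the Vcan result was not tested.

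The estimates behind these genes differed in precision. In the authors' control tables each FPKM value has a lower and an upper confidence bound. On the scaled axis the bounds of Vcan ran from 0.38 to 13.5 and from 0.20 to 13.9 in the KO controls, and from 0.95 to 9.72 and from 0.97 to 14.3 in the Y402F controls. They held both libraries of the matching mutant in every case, so the fall of Vcan is large relative to the spread between libraries but lies within the authors' bounds for single control libraries. The bounds of Ncan were narrow, from 20.2 to 24.5 over all 4 control libraries, and held no mutant library. For Hapln4 the bounds held both mutant libraries in 3 control libraries and neither in Y402F control replicate 1. The deposited mutant tables list 5 transcripts for Vcan, with a mean length of 8159 to 8921 bases per library, and 1 transcript for each other gene except Bcan, which has 2. GENCODE M21 holds 9 Vcan transcripts, of which 8 are coding, so a gene level for Vcan also rests on how reads were divided between isoforms, which the sources used here do not describe. Counting alone limits the mutant libraries too: Vcan had 94 to 122 expected counts, Acan 42 to 52 and Hapln2 34 to 60, with exact Poisson intervals that for Acan reach 31.1 to 35.2% above the count. These intervals cover counting error only.

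**Figure D2:**
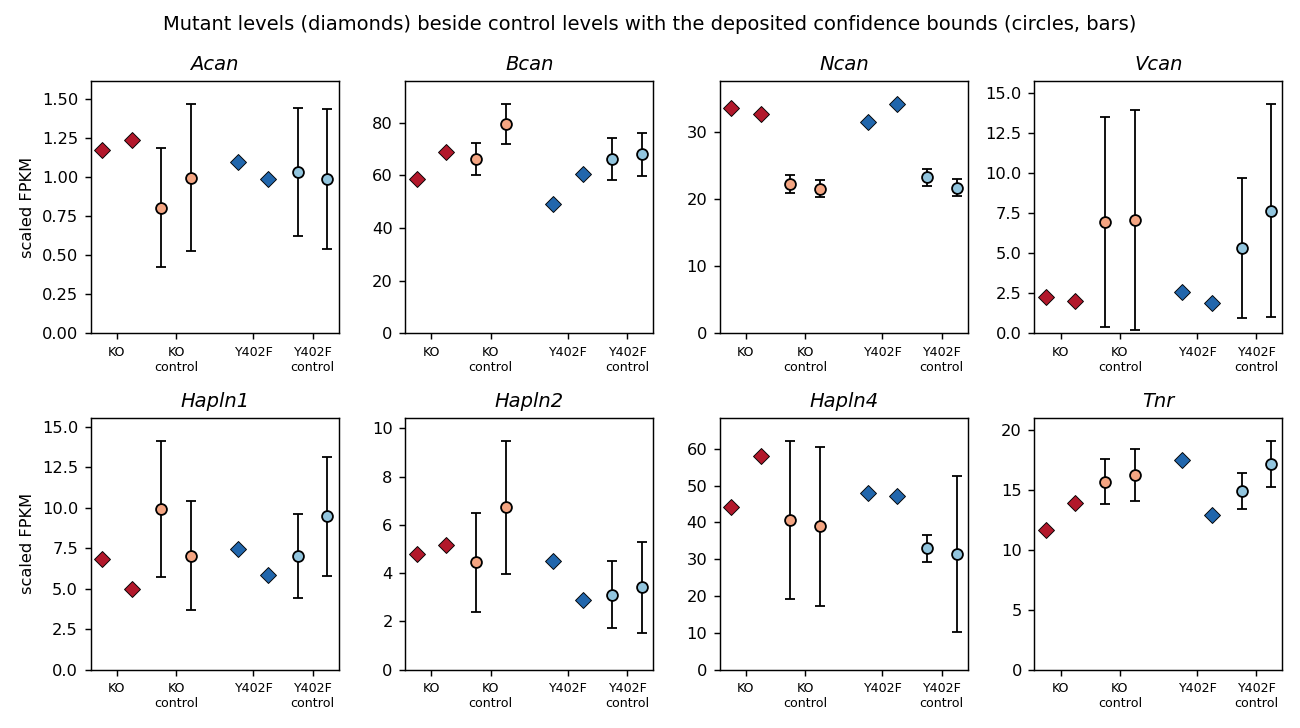
Scaled FPKM of each mutant library (diamonds) beside its control libraries (circles) with the confidence bounds deposited by the authors (bars). The bars of Vcan reach from below 1 to between 9.72 and 14.3 and take in all mutant values, while those of Ncan end at or below 24.5, under every mutant value.

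Bcan, the most abundant lectican and a product of astrocytes and oligodendrocyte lineage cells, did not pass the test in either line. It was at 58.7 and 69.1 scaled FPKM in KO, against 66.2 and 79.6 in KO controls, and the groups overlapped. In Y402F it was at 49.0 and 60.5 scaled FPKM, against 66.4 and 68.1 in Y402F controls, without overlap. The log2 differences were -0.19 (95% interval -0.51 to 0.13, limma adjusted p = 0.325) and -0.30 (-0.62 to 0.02, limma adjusted p = 0.137). Without scaling the second reached -0.45 with a limma adjusted p of 0.0389.

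Acan, which encodes aggrecan, had 1.17 and 1.24 scaled FPKM in KO, against 0.80 and 1.00 in KO controls. In Y402F it had 1.097 and 0.99 scaled FPKM, against 1.03 and 0.98 in Y402F controls. The first pair did not overlap and the second did. Neither difference passed, with log2 values of 0.22 in KO (95% interval -0.25 to 0.68, limma adjusted p = 0.436) and 0.025 in Y402F (-0.44 to 0.49, limma adjusted p = 0.937). At this level the pseudocount of 1 shrinks a fold change. Its neighbour Hapln3 was lower still, at 0.13 and 0.13 scaled FPKM in KO against 0.67 and 0.64 in KO controls, and 0.13 and 0.49 in Y402F against 0.39 and 1.09 in Y402F controls. It had 1 to 4 expected counts in the mutant libraries and was not tested.

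Of the link protein genes, Hapln4, the neighbour of Ncan, was called higher in Y402F. Hapln4 (also called Bral2) is found at perisomatic nets with brevican. It was at 44.2 and 58.0 scaled FPKM in KO, against 40.7 and 39.0 in KO controls. In Y402F it was at 47.9 and 47.3 scaled FPKM, against 33.0 and 31.4 in Y402F controls. The groups did not overlap in either line, but only the second difference passed, with 0.55 in Y402F (SE 0.13, 95% interval 0.25 to 0.85, limma adjusted p = 0.0140) and 0.34 in KO (SE 0.13, 0.04 to 0.64, limma adjusted p = 0.0744). The call in Y402F was lost without Y402F replicate 1 (limma adjusted p = 0.0684), without Y402F replicate 2 (0.0608) and without Y402F control replicate 2 (0.0675), while in KO the difference passed without KO replicate 1 (0.53, limma adjusted p = 0.0178) and shrank without KO replicate 2 (0.15, limma adjusted p = 0.367). The difference between the lines was not called (-0.21, SE 0.19, limma adjusted p = 0.668).

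Hapln1, the general link protein also known from cartilage, had 6.84 and 5.01 scaled FPKM in KO, against 9.95 and 7.05 in KO controls. In Y402F it had 7.43 and 5.87 scaled FPKM, against 7.04 and 9.48 in Y402F controls. The KO pair did not overlap and the Y402F pair did. The log2 differences of -0.45 (95% interval -0.98 to 0.08, limma adjusted p = 0.157) and -0.27 (-0.80 to 0.26, limma adjusted p = 0.399) did not pass. A processed pseudogene on the opposite strand, Gm8546, lies within Hapln1 over 1264 bases and was listed at 7.43 to 9.37 FPKM in the control tables. The sources used here do not say whether reads were counted by strand, so the level of Hapln1 there is uncertain.

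Hapln2 (also called Bral1), which sits at nodes of Ranvier and is made by oligodendrocytes, had 4.78 and 5.19 scaled FPKM in KO, against 4.45 and 6.74 in KO controls. In Y402F it had 4.51 and 2.90 scaled FPKM, against 3.11 and 3.42 in Y402F controls. Both pairs overlapped, with log2 differences of -0.12 (limma adjusted p = 0.718) and 0.12 (limma adjusted p = 0.718). The largest contrast of Hapln2 was between the wild-type pairs, which differ in sex pattern as well as in line. KO controls exceeded Y402F controls by 0.61 (SE 0.23, 95% interval 0.07 to 1.14), with an unadjusted p of 0.0308 and a limma adjusted p of 0.140. The 10 oligodendrocyte markers summed to 4526 and 4655 scaled FPKM in KO controls, against 2971 and 3000 in Y402F controls, and to 3059 and 3629 in KO, against 2789 and 3100 in Y402F. Without Mbp, their most abundant gene, the 9 others summed to 1039 and 1040 in KO controls, against 861 and 882 in Y402F controls. In KO those 9 summed to 898 and 996, against 873 and 829 in Y402F. None of the 10 was at 0 in any library. Between the wild-type pairs 2 of the 10 were called higher in KO controls (Mbp 0.75 and Cnp 0.79) and 0 lower. Of all genes 4.83% were called higher there and 3.14% lower. The part of these markers in the Hapln2 difference was not tested.

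Tnr, whose product crosslinks lecticans and is made largely by oligodendrocyte lineage cells and some interneurons, had 11.6 and 13.8 scaled FPKM in KO, against 15.7 and 16.2 in KO controls. In Y402F it had 17.5 and 12.9 scaled FPKM, against 14.9 and 17.1 in Y402F controls. The KO pair did not overlap and the Y402F pair did. The log2 differences were -0.31 (95% interval -0.70 to 0.08, limma adjusted p = 0.184) and -0.08 (-0.47 to 0.31, limma adjusted p = 0.735). An antisense gene, Gm38039, overlaps Tnr over 3337 bases and was listed at up to 6.97 FPKM in the controls.

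Counted over the list, 1 gene was called higher (Ncan) and 1 lower (Vcan) of 8 in KO against KO controls, where 37.7% of all 12974 tested genes were called, 16.7% higher and 20.9% lower. In Y402F against Y402F controls 2 were called higher (Ncan and Hapln4) and 1 lower (Vcan), where 32.4% of all genes were called, 13.1% higher and 19.3% lower. These counts lie near the share over all genes, so they are not a result about the 8 genes as a set. Without overlap between libraries, 3 genes were higher and 3 lower in KO, where 71.0% of all genes did not overlap, 35.7% higher and 35.3% lower. Among the higher was Acan, which passed the filter only with the KO libraries. In Y402F 2 were higher and 2 lower, where 68.6% of all genes did not overlap, 34.6% higher and 34.0% lower. The median log2 difference of the 8 was -0.15 in KO and -0.03 in Y402F, with a median of 0.00 over all genes in both. Ncan and Vcan changed the same way in both lines, as did 1182 genes called higher in both (54.4% of the KO calls and 69.7% of the Y402F calls) and 1832 called lower in both (67.4% and 73.2%).

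**Figure D3:**
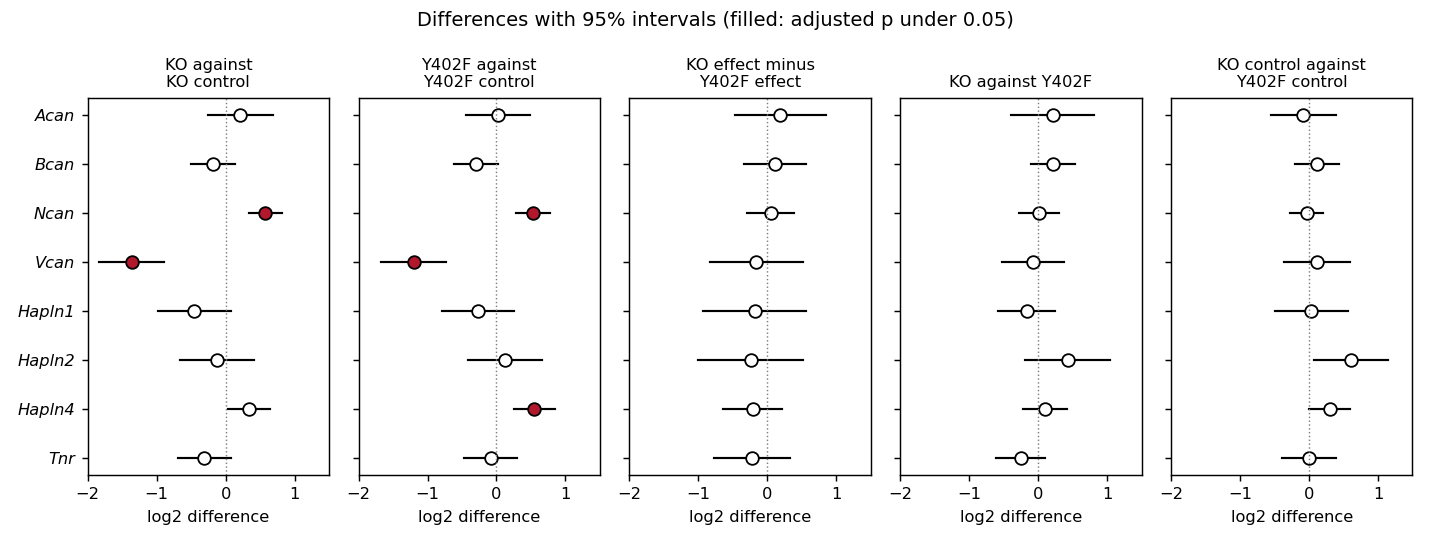
Log2 differences (horizontal axes) of the 8 genes in the 5 comparisons, with 95% intervals as lines and filled points where the adjusted p was under 0.05. Ncan and Vcan are filled in both mutant lines and Hapln4 in Y402F, and no point is filled in the 3 other panels.

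The comparison of KO with Y402F sets loss of the kinase beside loss of its autophosphorylation site within tables of the same kind. None of the 8 genes was called by edgeR's quasi-likelihood test, by DESeq2 or by limma, and none had an unadjusted p under 0.05 in edgeR, where 0.0157% of 12764 genes were called (Ptk2b, lower, and Npas4, higher and named after its value was seen, 0.00783% in each direction) and 232 had an unadjusted p under 0.05. Acan and Hapln2 were higher in KO without overlap, and 0 were lower, where 25.6% of all genes did not overlap, 12.8% higher and 12.8% lower. Acan passed the filter only with the KO libraries, so its place in this count is no support for a difference. Hapln2 differed by 0.43 (SE 0.30, 95% interval -0.19 to 1.05), Tnr by -0.26 (SE 0.17, -0.60 to 0.09) and Bcan by 0.21 (SE 0.15, -0.11 to 0.54), each with an edgeR adjusted p of 0.9995. Ncan, which was called against controls in both lines, differed by 0.01 (SE 0.14, 95% interval -0.28 to 0.31) and Vcan by -0.08 (SE 0.21, -0.52 to 0.37). The intervals bound the difference of Ncan more tightly than that of Hapln2, and do not show that the mutants are alike.

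The difference between the mutant effects, each taken against its own controls, was not called for any of the 8 genes (limma adjusted p 0.668 to 0.918), and 0 had an unadjusted p under 0.05. Over all genes 0.0308% were called and 13% had an unadjusted p under 0.05. The largest values were -0.24 for Hapln2 (95% interval -0.999 to 0.52) and -0.23 for Tnr (-0.77 to 0.32), and the smallest was 0.05 for Ncan (-0.29 to 0.39). Between the wild-type pairs limma called none of the 8, where 7.96% of all genes were called. Of the 8, 1 had an unadjusted p under 0.05 (Hapln2), as did 27.1% of all genes. Hapln2 and Hapln4 were higher in KO controls without overlap, and 0 of the 8 were lower, where 59.0% of all genes did not overlap, 28.1% higher and 30.9% lower. Hapln4 was at 39.8 ± 1.23 scaled FPKM in KO controls and 32.2 ± 1.18 in Y402F controls (SD, n = 2 each), a log2 difference of 0.30 (95% interval 0.00 to 0.60, limma adjusted p = 0.190).

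The make-up of the lectican family differed between mutant and control tables. Bcan made up 58.2 to 65.8% of the summed scaled FPKM of the 4 lecticans in the mutant libraries, against 68.8 to 72.9% in the control libraries. Ncan made up 31.1 to 37.4% in the mutants, against 19.7 to 24.1% in the controls. Vcan made up 1.92 to 3.07% in the mutants, against 5.56 to 7.77% in the controls. None of these 3 ranges overlapped, whereas the share of Acan did, at 1.01 to 1.30% against 0.83 to 1.07%. Ratios within a library do not depend on the scaling, but they carry the same difference of software. Among the 3 link protein genes Hapln4 took 79.2 to 85.0% in the mutants, against 70.8 to 76.5% in the controls, and Hapln1 took 7.34 to 12.4% against 13.4 to 21.4%. The share of Hapln2 overlapped, at 5.18 to 8.56% in the mutants against 7.2 to 12.8% in the controls. Between KO and Y402F the shares were close: Ncan took 33.1 ± 2.84% in KO and 36.2 ± 1.68% in Y402F, and Hapln4 82.1 ± 4.14% in KO and 82.2 ± 3.05% in Y402F (SD, n = 2 each).

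**Figure D4:**
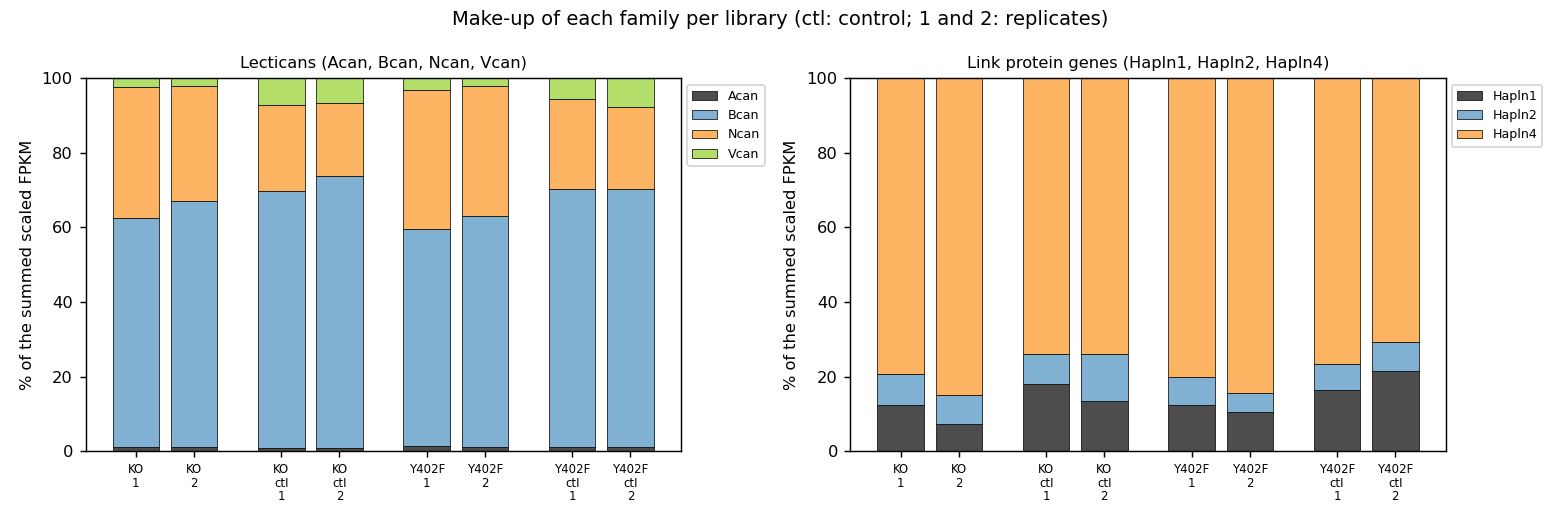
Share of each gene in the summed scaled FPKM (vertical axes, %) of the 4 lecticans and of the 3 link protein genes, 1 bar per library. Ncan fills 31.1 to 37.4% of the lectican bars in the mutants and 19.7 to 24.1% in the controls.

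The genes whose pattern over the libraries was most like that of each member were sought among 8873 genes with at least 5 scaled FPKM, after the mean of each kind of table was subtracted. Over 8 libraries the closest to Ncan were Vps29 (Pearson r = 0.99) and Ezr (0.956), and the closest to Vcan were Commd8 (0.968) and Ralgps2 (0.963). For Bcan they were Cant1 (0.981) and Gstm4 (0.969), for Acan Tmem87b (0.95) and Emc1 (0.946), and for Tnr Grasp (0.955) and Cd3eap (0.924). For Hapln1 they were Tstd3 (0.979) and Rbm6 (0.974), for Hapln2 Gng11 (0.958) and Dand5 (0.929), and for Hapln4 Ppdpf (0.982) and St3gal2 (0.968). Among the members themselves Ncan ran opposite to Vcan (-0.856) and to Tnr (-0.804), and Bcan opposite to Hapln1 (-0.742). With 8 libraries and so many genes searched these values describe the libraries only, and they share depth and sex pattern.

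Genes that act on the same matrix were counted in 6 lists. Among 10 tested partners of lecticans, 5 were lower and 1 higher in KO, and 4 were lower and 2 higher in Y402F. Of all genes 20.9% were lower and 16.7% higher in KO, and 19.3% lower and 13.1% higher in Y402F. Cspg5 (neuroglycan C, a neuronal chondroitin sulfate proteoglycan) fell to 82.3 ± 3.27 scaled FPKM in KO, against 134 ± 3.14 in KO controls (log2 difference -0.69, limma adjusted p = 0.000793), and to 74.5 ± 6.34 in Y402F, against 117 ± 6.46 in Y402F controls (-0.64, limma adjusted p = 0.00129). Crtac1, Nptxr and Ptn, the growth factor pleiotrophin that binds chondroitin sulfate, were also lower in both lines, with log2 differences of -0.82 and -0.38, -0.69 and -0.63, and -0.41 and -0.31 in KO and in Y402F. Nptx1, a neuronal pentraxin, was higher in both (0.40 and 0.46). Ptprz1, the receptor phosphatase phosphacan, did not pass in KO (25.1 ± 0.90 against 27.4 ± 0.24 scaled FPKM in KO controls, -0.12, limma adjusted p = 0.382) or in Y402F (26.9 ± 0.30 against 30.5 ± 0.76 in Y402F controls, -0.17, limma adjusted p = 0.216). Neither did Cspg4, which encodes NG2 (-0.16 and -0.11, limma adjusted p = 0.627 and 0.741). Tnc, encoding tenascin-C, averaged 0.90 scaled FPKM in KO and 0.61 in KO controls, and 0.91 in Y402F and 0.77 in Y402F controls, and was too low to be tested.

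Of 18 tested enzymes that build and sulfate chondroitin chains, 6 were called higher and 0 lower in KO by limma. Of all genes 16.7% were called higher there and 20.9% lower. At an unadjusted p under 0.05 stood 7 of the 18 in KO, where 47.3% of all genes did. In Y402F 4 were called higher and 1 lower, where 13.1% of all genes were called higher and 19.3% lower. In either direction these calls are near the 37.7% and 32.4% of all genes called in KO and in Y402F. The 4-O-sulfotransferase Chst11 was at 25.4 ± 0.51 scaled FPKM in KO, against 16.0 ± 0.48 in KO controls (0.63, limma adjusted p = 0.00331), and at 26.1 ± 2.19 in Y402F, against 19.1 ± 0.63 in Y402F controls (0.43, limma adjusted p = 0.0204). Ust, a uronyl 2-O-sulfotransferase, differed by 0.61 in KO and 0.53 in Y402F (limma adjusted p = 0.00359 and 0.00812). Chst15, which adds a further sulfate to 4-sulfated units, differed by 0.63 in KO and 0.55 in Y402F (limma adjusted p = 0.00982 and 0.0199). Fam20b, the xylose kinase of the linkage region, was called in KO (0.56, limma adjusted p = 0.00459) and not in Y402F (0.30, limma adjusted p = 0.0660). Dse, the epimerase that makes dermatan sulfate, fell in Y402F (1.04 ± 0.15 against 3.27 ± 0.85 scaled FPKM in Y402F controls, -1.05, limma adjusted p = 0.0182) and did not pass in KO (-0.20, limma adjusted p = 0.593).

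Of 8 receptors for chondroitin sulfate or their relatives, 3 were higher and 1 lower in KO, and 2 higher and 1 lower in Y402F, where 37.7% of all genes were called in KO and 32.4% in Y402F, so these counts are near the share of all genes. Ptprs, the receptor phosphatase sigma through which chondroitin sulfate inhibits axons, was at 83.9 ± 7.27 scaled FPKM in KO, against 140 ± 5.38 in KO controls (-0.73, limma adjusted p = 0.000785). In Y402F it was at 81.0 ± 5.40 scaled FPKM, against 175 ± 11.45 in Y402F controls (-1.102, limma adjusted p = 9.41e-05). Rtn4r, the Nogo receptor, was higher by 0.57 in KO and 0.60 in Y402F (limma adjusted p = 0.0062 and 0.00582). Rtn4rl1 was higher by 0.38 and 0.44 (limma adjusted p = 0.0333 and 0.0201), and Cntn1 passed in KO (0.47, limma adjusted p = 0.0113) and not in Y402F (0.22, limma adjusted p = 0.157). The difference between the effects was called for 0 of the 8 by limma, with Ptprs at an unadjusted p of 0.0299.

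In the hyaluronan list, leaving Hmmr aside, 0 of 5 genes were called higher and 1 lower in each line by limma. Of all genes 16.7% were called higher and 20.9% lower in KO, and 13.1% higher and 19.3% lower in Y402F. At an unadjusted p under 0.05, 1 was positive in KO (Cemip 0.55, limma adjusted p = 0.0766) and 1 in Y402F (Tmem2 0.60, limma adjusted p = 0.0719). In either direction 47.3% of all genes had an unadjusted p under 0.05 in KO and 43.7% in Y402F. Hyal2, a hyaluronidase, was lower, with log2 differences of -0.86 in KO and -0.72 in Y402F (limma adjusted p = 0.00763 and 0.0185). Hmmr, a hyaluronan receptor better known from dividing cells, was at 1.84 ± 0.37 scaled FPKM in KO, against 0.11 ± 0.05 in KO controls, and at 2.11 ± 0.70 in Y402F, against 0.04 in both Y402F controls. It reached the minimum mean of 1 scaled FPKM only through the mutant libraries, where it is high, so its difference is given as levels and not as a test. Of 7 proteases and inhibitors, Timp3 alone was called in KO (higher by 0.40, limma adjusted p = 0.0252), where 37.7% of all genes were called. None was called in Y402F, where 32.4% of all genes were called. There 1 had an unadjusted p under 0.05 (Timp4 0.47, limma adjusted p = 0.0529), as did 43.7% of all genes. Adamts1, which cleaves lecticans, did not pass in KO (0.57, limma adjusted p = 0.0510). Among 18 other proteoglycan core proteins, 6 were higher and 2 lower in KO, and 4 higher and 1 lower in Y402F, which in either direction is near the 37.7% and 32.4% of all genes called in KO and in Y402F. Spock2, a testican, was at 220 ± 0.73 scaled FPKM in KO, against 165 ± 1.19 in KO controls (0.41, limma adjusted p = 0.00263), and at 215 ± 4.89 in Y402F, against 165 ± 1.86 in Y402F controls (0.38, limma adjusted p = 0.00445). Spock1 was higher by 0.48 and 0.36 (limma adjusted p = 0.00377 and 0.0164). Of the glypicans, Gpc1 was higher in both lines (0.39 in KO and 0.69 in Y402F, limma adjusted p = 0.0463 and 0.00478). Gpc4 was higher in KO (0.72, limma adjusted p = 0.00418) and did not pass in Y402F (0.35, limma adjusted p = 0.0799). Dcn, decorin, was lower in both lines, with -0.72 and -1.02 (limma adjusted p = 0.0399 and 0.0113) and Fmod, fibromodulin, by -1.33 in KO (limma adjusted p = 0.0106); both also belong to the fibroblast markers above. In these 6 lists edgeR called 0 genes between KO and Y402F and limma 0 in the difference of the effects. At an unadjusted p under 0.05 stood 2 of them in the first (Nptx1 and Fmod), where 1.82% of all genes did. In the second 3 did (Crtac1, Ptprs and Fmod), where 13% of all genes did. limma called 1 between the wild-type pairs (B3gat3, 0.40, limma adjusted p = 0.0346), where 7.96% of all genes were called.

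**Figure D5:**
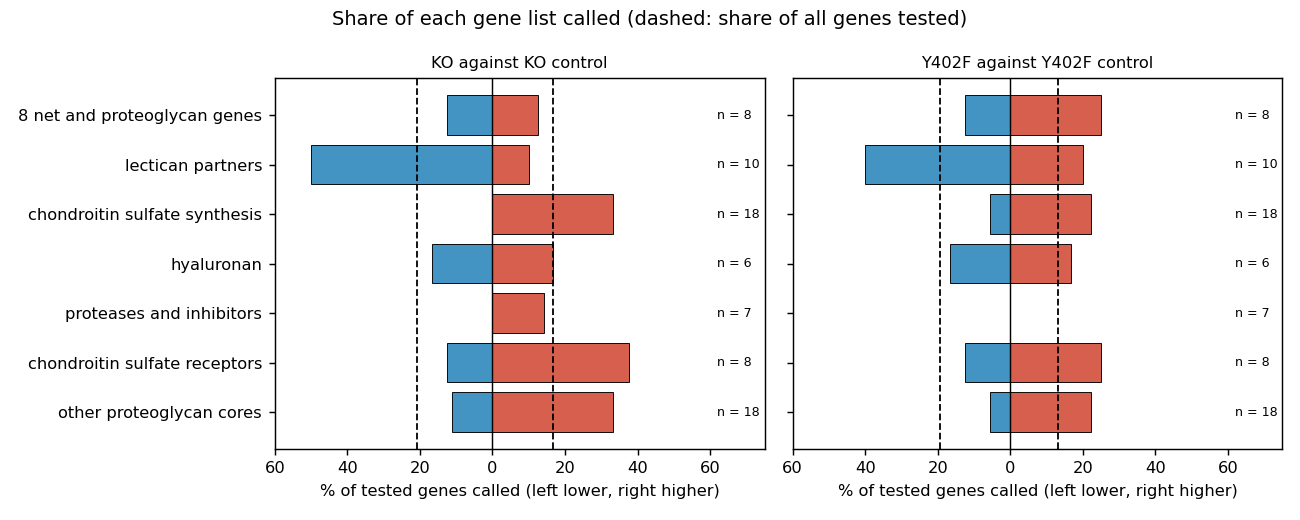
Share (%) of the tested genes of each list called lower (bars to the left) or higher (bars to the right) in KO and in Y402F, each against its controls, with the number tested. Dashed lines mark the share over all 12974 genes: the partners of lecticans reach 5 of 10 lower in KO, and the 8 net and proteoglycan genes stay at 1 lower in each line. The bars of the hyaluronan list to the right are Hmmr alone, which passed the filter only through the mutant libraries and is not counted as a call in the text.

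Cells that carry nets were looked at through their markers. Pvalb, the calcium-binding protein of net-bearing interneurons, was at 65.8 ± 4.83 scaled FPKM in KO, against 76.8 ± 5.90 in KO controls (-0.22, limma adjusted p = 0.112). In Y402F it was at 50.4 ± 0.27 scaled FPKM, against 54.0 ± 0.75 in Y402F controls (-0.10, limma adjusted p = 0.483). The wild-type pairs differed, with KO controls (both female) higher than Y402F controls (both male) by 0.50 (limma adjusted p = 0.0263). Line and sex pattern cannot be told apart there. Of 10 genes listed as parvalbumin interneuron markers, not all limited to these cells, 1 was called higher in KO (Gad2 0.51) and 2 lower (Tac1 -1.01 and Gad1 -0.29). In Y402F 0 were called higher and 4 lower, namely Kcnc1 (-0.56), Gad1 (-0.40), Tac1 (-0.75) and Syt2 (-0.85). The log2 difference was positive for 2 of the 10 in KO and for 3 in Y402F (Gad2, Kcns3 and Lhx6). Gad2 was at 32.4 ± 6.62 scaled FPKM in Y402F, against 24.9 ± 0.38 in Y402F controls. Over all genes 16.7% were called higher and 20.9% lower in KO, and 13.1% higher and 19.3% lower in Y402F. The 10 genes of this list summed to 313 and 278 scaled FPKM in KO, against 332 and 350 in KO controls, and to 285 and 259 in Y402F, against 331 and 330 in Y402F controls. Without Gad1, the most abundant of them, the sum was 198 and 174 in KO, against 204 and 208 in KO controls. In Y402F it was then 173 and 152, against 190 and 180 in Y402F controls. The CA2 marker Map3k15 was at 12.4 ± 1.63 scaled FPKM in KO against 0.23 ± 0.11 in KO controls and 12.9 ± 0.61 in Y402F against 0.29 ± 0.10 in Y402F controls. It too reached the minimum mean only through the mutant libraries and is given without a test. Of the 6 other CA2 markers 0 were called in KO by limma. There 1 had an unadjusted p under 0.05 (Necab2 -0.26), as did 47.3% of all genes. Amigo2 was called higher in Y402F (0.62, limma adjusted p = 0.0231). The sum of 10 astrocyte markers was 1273 and 1225 scaled FPKM in KO, against 2213 and 2287 in KO controls, and 1169 and 1202 in Y402F, against 1723 and 1689 in Y402F controls. Aldoc held more than the whole of this difference, at 362 ± 5.61 scaled FPKM in KO against 1441 ± 37.2 in KO controls, and 326 ± 21.6 in Y402F against 931 ± 17.9 in Y402F controls. Without Aldoc the 9 other markers summed to 907 and 867 in KO, against 798 and 819 in KO controls, and to 858 and 860 in Y402F, against 780 and 771 in Y402F controls, so that sum was higher in both mutants. By call, 3 of the 10 were higher and 4 lower in KO, and 1 higher and 3 lower in Y402F. The neuron list summed to 3419 and 3241 scaled FPKM in KO, against 2640 and 2658 in KO controls, and to 3408 and 3162 in Y402F, against 2813 and 2826 in Y402F controls. Without Camk2a, its most abundant gene, it was still higher in KO (2156 and 1855, against 1590 and 1585 in KO controls), while the Y402F libraries (2154 and 1814) overlapped their controls (1832 and 1865). No marker of these 4 lists was at 0 in any library. Oligodendrocyte markers also split within their list, with Mobp at -1.40 and Opalin at 1.21 in KO. The part of these cell types in the results above was not tested.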

How the data were processed

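RNA-seq of mouse hippocampus was analysed in 8 libraries of 4 groups. The submitters' processing notes name Bowtie 1, HISAT and the build mm9 for every library, and Cufflinks for control libraries. The control loci nevertheless lie on GRCm38. The mutant tables deposited by the authors hold an expected count (estimated count, not always whole, in an RSEM-like layout per the file headers) and an FPKM per Entrez gene. The deposited control tables hold FPKM with bounds per Ensembl gene and no count. Of 18022 mutant genes 17596 were matched by symbol and 109 by the Entrez table of GENCODE. Libraries were scaled by the median ratio across 11463 genes that reached 1 FPKM everywhere, which removed a median shift of -0.117 (KO) and -0.12 (Y402F).

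limma 3.58.1 with an intensity trend was run on log2(scaled FPKM + 1) over all 8 libraries (4 residual degrees of freedom, genes with a mean of at least 1). edgeR 4.0.16 (quasi-likelihood, TMM) was run on rounded expected counts for KO against Y402F (2 residual degrees of freedom, mean of at least 1 FPKM), with DESeq2 1.42.0 as an alternative. Calls required p under 0.05 after Benjamini-Hochberg adjustment across all genes tested. edgeR standard errors were derived from its F statistic. Scripts were tested on simulated data.

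The 8 genes and the lists were chosen with earlier results of these data known. Named were the 8 genes, Ptk2b, per list up to 4 called genes with the smallest p (the 2 smallest where fewer than 2 were called), Hapln3, Tnc, Ptprz1, Cspg4, Cspg5 and Pvalb, and the 2 genes most alike per member. Other genes named beside small counts, and the marker sums without their most abundant genes, were picked once their values were known. The mouse promoters are from RefSeq (GRCm38.p6). Alternatives covered pseudocount, filter, scaling, trend, samples fitted, replicate block, a term for sex pattern and leaving out each library. Fits ran in R 4.3.3, tables in Python 3.11.15 (numpy 2.4.6, pandas 2.3.3), plots in matplotlib 3.10.9.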

Additional observations from a re-analysis of the deposited data

How the results depend on the processing

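Ncan kept its direction and its call in both lines under all 15 other settings, and Vcan kept its call in both lines under 13 of 14. Scaling every library to the same FPKM sum moves the median gene by 1.59 (KO), 1.08 (Y402F), -0.54 (wild-type pairs) and 0.54 (difference of effects), because Bc1 took 53.1 to 67.7% of the matched FPKM in controls and 3.1 to 5.4% in mutants. Under it 7 of the 8 genes were called higher and 0 lower in each line, 3 were called lower between the wild-type pairs and 2 higher in the difference of effects. Of all 12974 genes tested this scaling called 11773 in KO and 10341 in Y402F, in either direction. It called 6968 between the wild-type pairs and 3707 in the difference of effects. The counts of members are therefore not a result about the 8 genes. Directions turned there in KO for Bcan (1.61), Hapln1 (1.17), Hapln2 (1.45), Tnr (1.41) and Vcan (0.079), in Y402F for Bcan (0.89), Hapln1 (0.82) and Tnr (1.07), in the wild-type pairs for Bcan (-0.51), Hapln1 (-0.52), Hapln4 (-0.31) and Vcan (-0.42), and in the difference of effects for Hapln1 (0.34), Hapln2 (0.31), Hapln4 (0.39), Tnr (0.34) and Vcan (0.36). Without Bc1, an alternative chosen after seeing the data, the median moved by 0.24, 0.14, -0.14 and 0.12, 2 genes were called higher in KO, and the signs of Bcan (0.07) and Hapln2 (0.11) in KO, Tnr in Y402F (0.061) and Bcan (-0.018) and Hapln1 (-0.087) in the wild-type pairs turned.

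Quantile normalization called 2 genes higher in KO and turned Bcan in KO (0.065), Tnr in Y402F (0.053) and Tnr in the wild-type pairs (0.023). No scaling called 2 lower in Y402F and turned Acan there (-0.051). A mean of at least 5 left 0 called lower in each line, because Vcan was no longer tested. A term for sex pattern turned Bcan (-0.15), Hapln1 (0.16) and Vcan (0.047) in the difference of effects and Hapln1 (-0.31), Ncan (0.002) and Vcan (-0.09) in the wild-type pairs. None of the turned values was called in the main comparison except Vcan in KO, and the cause of these changes was not tested beyond the scaling itself.

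Leaving out each library in turn gave 1 to 2 genes called higher in each line. The second call in KO came without KO replicate 1, and 1 call was left in Y402F without Y402F replicate 1, Y402F replicate 2 or Y402F control replicate 2. Signs varied for Hapln2 in KO (-0.372 to 0.133) and for Acan (-0.013 to 0.063), Hapln2 (-0.127 to 0.371) and Tnr (-0.289 to 0.124) in Y402F. In the wild-type pairs they varied for Hapln1 (-0.189 to 0.255), Tnr (-0.097 to 0.093), Bcan (-0.022 to 0.24), Ncan (-0.082 to 0.011) and Vcan (-0.111 to 0.339). In the difference of effects they varied for Bcan (-0.036 to 0.261), Hapln1 (-0.405 to 0.04), Ncan (-0.008 to 0.105), Hapln2 (-0.493 to 0.012) and Vcan (-0.382 to 0.067), and in KO against Y402F for Ncan (-0.047 to 0.082), Hapln1 (-0.416 to 0.053), Hapln4 (-0.094 to 0.279) and Vcan (-0.264 to 0.151).

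With the replicate number as a block, 1 gene was called higher and 1 lower in KO, 2 higher and 1 lower in Y402F and 0 elsewhere, as without it. Over all genes the block called 4935 in KO (4888 without it), 4210 in Y402F (4199), 1061 between the wild-type pairs (1033), 5 in the difference of effects (4) and 5 between KO and Y402F (2). Deviations of same-numbered libraries correlated at 0.204 between KO and Y402F and at -0.031 to 0.048 otherwise, and the labels do not say that numbers pair the samples. Over all settings the count of all genes called ran from 3105 (without KO replicate 1) to 11773 in KO, from 2840 (without Y402F replicate 1) to 10341 in Y402F, from 170 (no intensity trend) to 6968 between the wild-type pairs, from 2 to 3707 in the difference of effects and from 1 to 35 (without Y402F replicate 1) between KO and Y402F. Except between KO and Y402F, the highest count came from scaling every library to the same FPKM sum. Depth limits Acan, Hapln2 and Vcan most, and read numbers of the controls are not given.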
